A study of Oryza sativa with 10 samples.

Results

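The genes described here across 5 rice tissues encode ribosomal proteins: CL18 and CL27, named for large-subunit proteins of the chloroplast ribosome, and RPS26, named for a small-subunit protein of the cytosolic ribosome. They were found by symbol or synonym in the gene annotation and are 3 of the 17905 genes that the annotation ties to the array, with 5 of its 57381 probe sets. The genes were chosen with their signals on these same arrays already known, so their levels are given as a description, with no test. CL18 (LOC4334651, also listed as RPL18) has 1 probe set. CL27 (LOC4327257, also listed as RPL27) has 3, and RPS26 (LOC4327570, also listed as S31) has 1. All 5 probe sets reached a signal of 100 on at least 2 arrays, the minimum for entering the fit.

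The plants were Oryza sativa, japonica cultivar Zhonghua 11, grown in a phytotron, and no group differed in genotype or carried a treatment. Seeds were taken 6 days after anthesis and gave embryo and endosperm. Seedlings aged 7 days gave leaf and root, and the last group was seedling aged 10 days. Total RNA extracted with TRIzol was labelled with biotin and hybridized to the Affymetrix rice genome array, with 2 biological repeats for each tissue and 10 arrays in all. Whether repeats shared plants or days is not given, so every SD and p-value measures only the spread between these arrays, and their small number limits the precision. Values are signals, on a linear scale, with the same trimmed mean of 500 on each array.

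A plant cell makes proteins on separate kinds of ribosome. Those of the cytosol are of the eukaryotic type and read messages from the nucleus. Those of the chloroplast are of the bacterial type and read the messages of the plastid genome, which encode core subunits of the photosystems and the large subunit of Rubisco. Chloroplast ribosomal proteins are encoded partly in the plastid and partly in the nucleus, and CL18 and CL27 belong to the nuclear share. In bacteria, L18 binds the 5S RNA of the large subunit and L27 lies near the site where peptide bonds form. In yeast, the counterpart of RPS26 lies on the small subunit where the messenger RNA leaves it.

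The tissue labels were set beside marker genes. These markers were picked with earlier results of the same arrays known, so they are no independent check of the labels. All 5 embryo, all 6 endosperm and all 4 root markers on the array had their highest mean in the tissue they are named for. Of 5 leaf markers, 3 were highest in leaf, while CAB2R, a chlorophyll-binding protein, and OsrcaA1, the activator of Rubisco, were highest in seedling. Summed over the 5 genes, the leaf markers reached 74495 and 65366 on the leaf arrays and 51066 and 64145 on the seedling arrays. Embryo had the lowest sums, at 2192 and 1911. The repeats differed in endosperm, at 4681 and 26970, and in root, at 19321 and 6659. The ratio of the 3′ to the 5′ probe set for Gapdh, a measure of RNA integrity, was 26.3 and 29.1 for leaf and 11.3 and 9.45 for seedling. It was lower for embryo, at 1.82 and 1.65, and for endosperm, at 4.71 and 5.28. The 2 root arrays stood apart, at 2.04 and 24.0. Leaf therefore had the highest leaf marker sums and the highest Gapdh ratios at once, and the part of either in the differences below was not tested.

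CL18 was highest in leaf and lowest in root. Its signal was 10766 and 9778 on the leaf arrays. Seedling followed with 6175 and 10610, so its range overlapped that of leaf. In embryo the values were 4357 and 3781, and in endosperm 2816 and 3095. Root gave 2852 and 876, and array 1 of root lay inside the endosperm range. The order was therefore leaf, seedling, embryo, endosperm and root, and only embryo was separated from both of its neighbours. Mean signal in leaf, 10272 ± 699 (SD, n = 2), was 5.51 times that in root, 3.48 times that in endosperm and 2.52 times that in embryo.

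**Figure D1:**
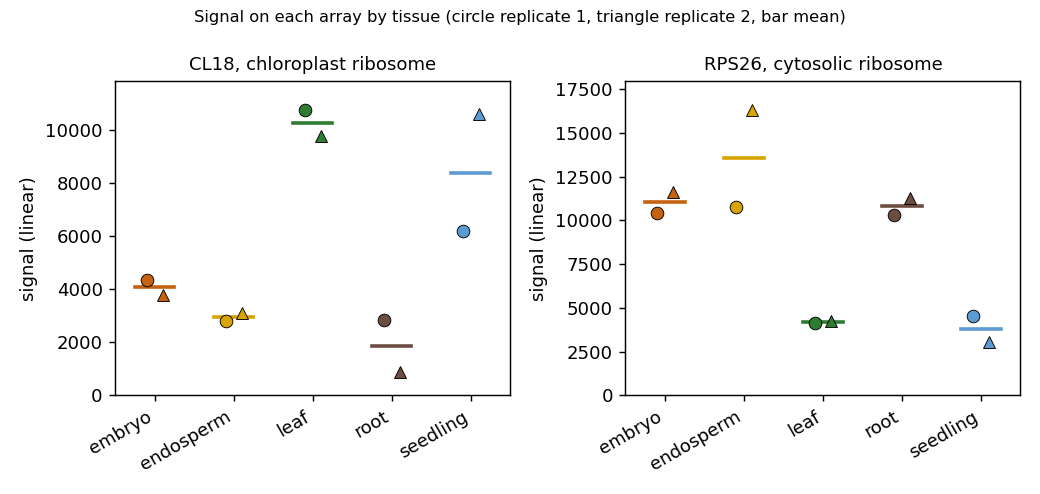
Signal of CL18 and of RPS26 (linear, vertical axes from 0) in the 5 tissues, with a circle for array 1, a triangle for array 2 and a bar for the mean. CL18 was highest by its mean in leaf, at 10766 and 9778, and RPS26 in endosperm, at 10780 and 16322; the panels are separate probe sets, whose levels are not compared with each other.

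On the log2 scale, after adding 16 to each signal, CL18 was 2.68 ± 0.46 higher in leaf than in root (SE from the limma fit over all probe sets, n = 2 arrays a tissue). Against endosperm the leaf difference was 1.79 ± 0.46, and against embryo it was 1.33 ± 0.46. Seedling minus leaf was -0.34 ± 0.46 and embryo minus endosperm 0.46 ± 0.46, each about as large as its standard error or smaller. The 2 root arrays differed 3.26-fold, the widest gap between repeats of any tissue for CL18. Root array 1, where CL18 was higher, also had the higher leaf marker sum (19321 against 6659) and the lower Gapdh ratio (2.04 against 24.0). Most of each marker sum was CAB2R, at 15512 and 3976. CHL1, GLN2 and LFNR1 were also higher on root array 1, while OsrcaA1 was lower there (1275 against 1487). Without root array 1 the leaf minus root difference was 3.53, and without array 2 it was 1.84. In bulk tissue, fewer cells with chloroplasts and less of this RNA in each cell cannot be told apart.

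The 3 probe sets of CL27 shared a high signal in leaf but did not give the same order of tissues. The first read 3154 and 3184 in leaf, 1237 and 1487 in seedling and 1083 and 1122 in embryo. Below these came root with 719 and 327 and endosperm with 202 and 369. Only the last 2 tissues overlapped. The leaf mean was 11.1 times that in endosperm and 6.06 times that in root.

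The second probe set was the dimmest of the gene and reached 100 on 9 of the 10 arrays. It read 742 and 780 in leaf and 309 and 508 in seedling. In root it read 170 and 188, in embryo 114 and 167, and in endosperm 85 and 290. The endosperm arrays spanned all the values of root and embryo, so beyond leaf and seedling this probe set gave no order between endosperm and these tissues.

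The third probe set is of the s type, which can match more than 1 transcript, and it differed from the others in endosperm. Its signal was 3860 and 3616 in leaf and 3886 and 2836 in endosperm, and these ranges overlapped. Seedling, at 1775 and 2356, overlapped with embryo, at 1856 and 1913. Root was lowest, at 862 and 547. Thus the first probe set was lowest in endosperm, while the third had endosperm next to leaf, with a mean 1.78 times that in embryo. Which transcripts each probe set detects was not examined, because no probe or transcript sequence was used here.

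**Figure D2:**
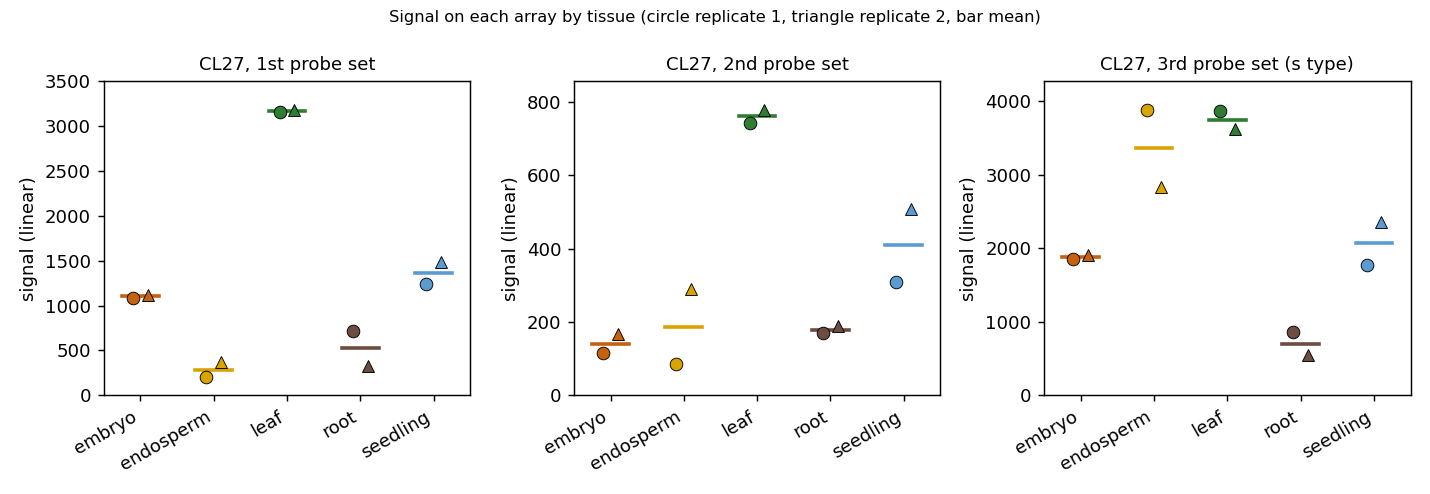
Signal of the 3 CL27 probe sets (linear, each vertical axis from 0 and on its own scale) in the 5 tissues, with a circle for array 1, a triangle for array 2 and a bar for the mean. Leaf is highest by its mean in every panel; endosperm is lowest in the first panel (202 and 369) and overlaps leaf in the third (3886 and 2836).

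All 3 probe sets of CL27 read higher in leaf than in root, by 2.67 ± 0.39, 1.997 ± 0.51 and 2.42 ± 0.29 in log2 for the first, the second and the third (± SE). Leaf was also above embryo, by 1.51 ± 0.39, 2.33 ± 0.51 and 0.98 ± 0.29. Leaf minus endosperm was 3.46 ± 0.39 and 2.14 ± 0.51 for the first and second but 0.17 ± 0.29 for the third. Embryo minus endosperm went from 1.95 ± 0.39 through -0.19 ± 0.51 to -0.81 ± 0.29. Seedling read below leaf by all 3, with differences of -1.21 ± 0.39, -0.91 ± 0.51 and -0.86 ± 0.29. Over the 10 arrays the log2 values of the first and the third probe sets had a Pearson correlation of 0.337, against 0.828 between the first and CL18. These correlations are across tissues measured in the same arrays and carry no p.

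Root array 1 was above root array 2 for the first and the third probe sets, as for CL18, and the second read 170 and 188. In endosperm, array 2 was higher for the first and second probe sets and lower for the third. Endosperm array 2 had the larger leaf marker sum of the pair, 26970 against 4681, and most of it was CAB2R, at 24306. Without endosperm array 1, leaf minus endosperm for the second probe set was 1.34, and without array 2 it was 2.95. Embryo minus endosperm for the same probe set was -0.99 without endosperm array 1 and 0.62 without array 2.

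Other genes for chloroplast ribosomal proteins were taken by name from the annotation. It lists 4 in the nucleus besides CL18 and CL27, of which ASL1 and AL1 have a probe set and CL12 and CS17 have none. It also holds 26 entries for ribosomal proteins encoded in the plastid, none of which has a probe set, so the plastid-encoded part of the chloroplast ribosome was not measured. ASL1, the plastid S20 protein of the small subunit, whose loss gives albino seedlings in rice, was tested over all genes. A gene was called at a Benjamini-Hochberg adjusted p under 0.05 in limma and at least a 2-fold difference.

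ASL1 read 7601 and 8822 in leaf, 3712 and 5837 in seedling, 2660 and 2353 in embryo, 2305 and 1192 in root, and 932 and 976 in endosperm. The tissues fell in that order, and no neighbouring pair overlapped. ASL1 was called higher in leaf than in root by 2.29 ± 0.33 in log2 (SE, limma adjusted p = 0.00109), and both leaf arrays lay above both root arrays. It was called higher in leaf than in embryo, by 1.70 (adjusted p = 0.00205), and than in endosperm, by 3.08 (adjusted p = 3.85e-05). Embryo was above endosperm by 1.38 (adjusted p = 0.0079), a call that ended when embryo array 1 was left out (adjusted p = 0.0601). Seedling minus leaf was -0.81 and was not called (adjusted p = 0.289). Like CL18, ASL1 was higher on root array 1 than on root array 2.

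AL1 was taken into the list by its symbol, but the annotation also gives that name as a synonym of the CL12 gene, so whether it encodes a ribosomal protein is not settled. By its brightest probe set it was called higher in leaf than in root (3.59), embryo (2.87) and endosperm (4.71), and in embryo than in endosperm (1.84). In endosperm this probe set read 30.8 and 89.5, below the signal minimum of 100, so the differences against endosperm depend on the 16 added. The embryo minus endosperm call ended without embryo array 1 (adjusted p = 0.0796), embryo array 2 (0.0547) or endosperm array 1 (0.0765). Seedling minus leaf was -1.22 and was not called (adjusted p = 0.279). Its dimmer tested probe set gave the same calls except for embryo minus endosperm, at 0.94 (adjusted p = 0.227). Both genes on the array were thus called higher in each of the first 4 comparisons, and 1 of 1 with AL1 left out. Of all 16420 genes tested, 12.3% were called higher in leaf than in root, 27.8% in leaf than in embryo, 35.9% in leaf than in endosperm and 22.4% in embryo than in endosperm. Beside such shares, a count of 1 or 2 genes says little about the list.

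Genes that act in plastid transcription and RNA supply were sought by symbol or synonym, and most of the symbols sought matched no gene. The annotation held 4 such genes, 3 of them with a probe set, and these 3 gave a mixed picture. OsSig2B, a sigma factor of the plastid RNA polymerase, read 562 and 358 in leaf and 18.8 and 7.62 in root, a log2 difference of 4.02 (limma adjusted p = 0.00359). Its root values were far below the signal minimum of 100, so this difference depends on the 16 added. Wsl3, a component of the same polymerase, read 1678 and 1660 in leaf, 437 and 416 in root, and 1668 and 1786 in seedling. It was called higher in leaf than in root by 1.93 (adjusted p = 0.00105). V2, a guanylate kinase of plastids and mitochondria, read 956 and 940 in leaf and 438 and 584 in root. Its leaf minus root difference of 0.89 passed the adjusted p (0.0455) but not the 2-fold minimum.

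OsSig2B and wsl3 were also the 2 of 3 genes called higher in leaf than in embryo (2.47 and 2.18), where 27.8% of all genes were, and in leaf than in endosperm (3.06 and 2.46), where 35.9% were. OsSig2B read 71.5 and 64.7 in embryo and 125 and 5.96 in endosperm. Its leaf minus embryo call ended with a pseudocount of 1 (adjusted p = 0.0764), with quantile normalization (0.075), and without embryo array 1 (0.0767), embryo array 2 (0.0835) or leaf array 1 (0.114). Without endosperm array 2 its leaf minus endosperm difference was 1.73. V2 was 0.07 higher in leaf than in embryo and 0.50 higher than in endosperm, and was called in neither. The median of the 3 genes was 1.93 for leaf minus root, against -0.03 over all genes. In limma no gene of the 3 was called in embryo minus endosperm or in seedling minus leaf, and none had an unadjusted p under 0.05 there. OTP51, a plastid splicing factor, has no probe set.

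RPS26 ran the other way from CL18. Endosperm gave 10780 and 16322, embryo 10426 and 11625, and root 10324 and 11298. These 3 tissues overlapped. Leaf gave 4124 and 4272 and seedling 4544 and 3032, which overlapped with each other. The lowest of the 6 higher arrays was root array 1 at 10324 and the highest of the 4 lower arrays was seedling array 1 at 4544. The level of RPS26 thus fell into a higher range in endosperm, embryo and root and a lower range in leaf and seedling, with no order inside either.

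Mean RPS26 signal was 3.23 times higher in endosperm, 2.63 times higher in embryo and 2.58 times higher in root than in leaf. The log2 differences were -1.66 ± 0.25 for leaf minus endosperm, -1.39 ± 0.25 for leaf minus embryo and -1.36 ± 0.25 for leaf minus root (SE, n = 2 arrays a tissue). Embryo minus endosperm was -0.27 ± 0.25 and seedling minus leaf -0.18 ± 0.25. Scaling the arrays by their hybridization spike-ins instead of the trimmed mean brought leaf minus endosperm to -0.59 and turned embryo minus endosperm to 0.68. Scaling by the median turned embryo minus endosperm to 0.026. Leaf minus root kept its sign under each scaling, from -1.43 to -1.04 over all alternatives. Over the 10 arrays the log2 values of RPS26 and CL18 had a correlation of -0.798, which describes these tissues and has no p.

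**Figure D3:**
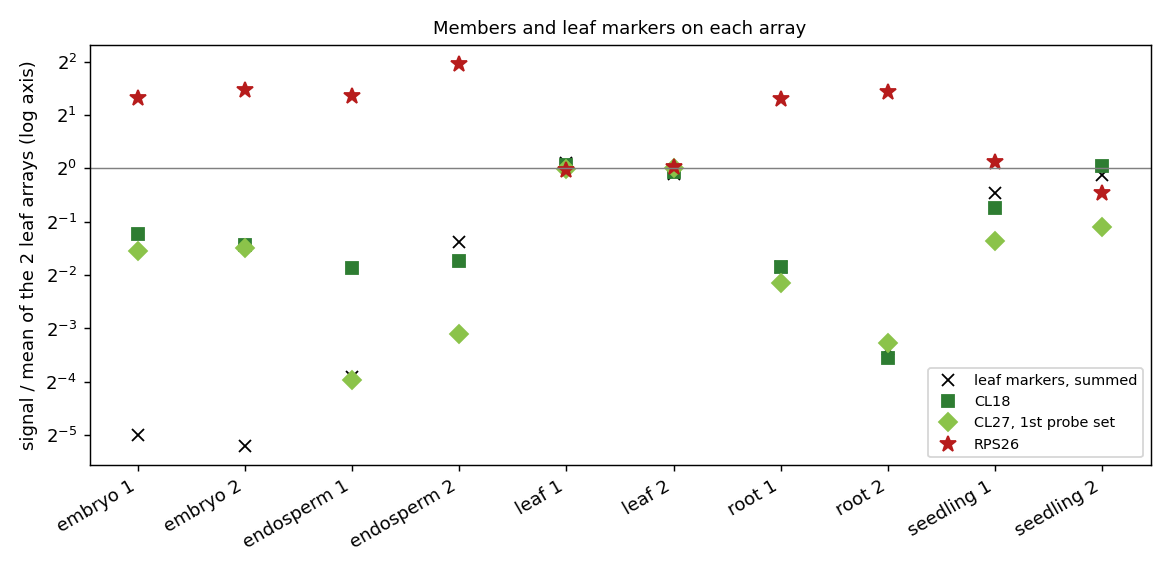
Signal of CL18, the first CL27 probe set, RPS26 and the summed leaf markers on each of the 10 arrays, each divided by its mean over the leaf arrays (log axis, 1 point an array). RPS26 lies above the leaf level on all embryo, endosperm and root arrays, while CL18 and CL27 lie below it there; on root array 2 CL18 stands at 876 against 2852 on root array 1.

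Other cytosolic ribosomal proteins were read beside RPS26. A search of the annotation for ribosomal protein symbols or synonyms, such as RPS or RPL and a number, gave 26. Of these, 22 have a probe set and all 22 were tested. Genes named otherwise are not in this list. The names of 2 do not settle their ribosome: rpl5 (LOC4331459), whose compartment the annotation does not give, and rps14, a gene also listed as SDH2-1, the name of a mitochondrial succinate dehydrogenase subunit. They were set aside after their values were seen, and the counts are given both ways. Of the 22, 13 had their highest mean in endosperm and 7 in embryo, and the others were rpl5 in leaf and rps14 in root. The lowest mean was in seedling for 14, in leaf for 7 and in embryo for 1. The same division was not counted over all genes, so these counts stand without a share beside them. In 18 of the 22, and 18 of the 20 without that pair, all 4 seed arrays read above both leaf arrays, as they did for 20.9% of all genes.

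Leaf against endosperm was compared next. Of the 22 genes, 15 were called lower in leaf and 1, rpl5, higher, where 18.8% of all genes were called lower. The median difference was -1.19, or -1.24 over the 20, against 0.42 over all genes. The largest fall was in rps20, a small-subunit protein, which read 17766 and 20556 in endosperm and 4172 and 4243 in leaf by its brightest probe set. Its log2 difference was -2.18 ± 0.19 (limma adjusted p = 1.07e-05), and the arrays did not overlap. RPL5, which carries the 5S RNA into the large subunit, fell by 1.62 (adjusted p = 0.000155), from 24223 and 27604 in endosperm to 8083 and 8754 in leaf. RPL30, of the large subunit, fell by 1.55 (adjusted p = 6.99e-05). RPS3A, with a difference of -0.79 by its brightest probe set, passed the adjusted p (0.00829) but not the 2-fold minimum. Its other probe sets disagreed, with differences of -1.34, -1.45 and 0.33.

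This count depended on how the arrays were scaled. Among the 20 genes, 15 were called lower with the trimmed mean, 2 with median scaling, 1 with quantile normalization and 1 with the spike-ins. Of all genes, 10.7%, 20.4% and 5.82% were called lower under the last 3. The direction held for most but not all of the genes: 20, 19, 17 and 14 of 20 had a negative difference. Scaling also moved the median of all genes, which was 0.42, 0.95, 0.23 and 1.43 in the same order. Relative to that median the 20 genes lay at -1.66, -1.64, -0.59 and -1.59. The number of calls therefore moved with the scale, while the list stayed below the median of all genes under each of the 4 scalings.

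Leaf against embryo also gave lower calls. Lower in leaf were 8 of 22 genes, or 7 of 20, where 16.7% of all genes were, and the median was -0.89 against 0.24 over all genes. RPS10-1, a small-subunit protein, fell by 1.98 (limma adjusted p = 0.000308), from 4445 and 4832 in embryo to 1218 and 1110 in leaf. RPL5 fell by 1.63 (adjusted p = 0.000213) and RPS7 by 1.62 (adjusted p = 0.000367). The brightest gene not called was RPS21, at -0.44 (adjusted p = 0.093), although its dimmer probe sets gave -2.05 and -1.86. With no fold minimum 19 of 22 were called lower, where 20.1% of all genes were, and with quantile normalization 4 of 22, where 18.3% were. For the 20 genes, leaf minus embryo had 7 lower calls against 15 for leaf minus endosperm with the trimmed mean. The counts were 5 against 2 with median scaling, 3 against 1 with quantile normalization and 6 against 1 with the spike-ins. The share of all genes in leaf minus embryo was not counted for median scaling or the spike-ins. Which comparison had more calls is therefore not read as a result about the list. The single gene called higher was again rpl5, by 2.97 (adjusted p = 0.00199).

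In leaf against root, all 20 genes had a negative leaf minus root difference, from -0.85 for RPL5 to -0.12 for RPL9, with a median of -0.56 against -0.03 over all genes. None of the 20 was called in limma by its brightest probe set, where 9.62% of all genes were called lower, and 14 of them were lower at an unadjusted p under 0.05, as were 18.8% of all genes. Dimmer probe sets were called lower for 4 of the 20, rps20 (-1.66), RPS21 (-1.69), RPS3A (-1.09 and -1.15) and RPS4 (-1.37), so this count of 0 rests on the choice of probe set. By any probe set, 10.2% of all genes were called lower. The genes were looked up by any probe set after the values were seen. With no fold minimum, 6 of the 22 were called lower, where 11.4% of all genes were. Of the 22, rps14 was called lower in leaf (-1.70, limma adjusted p = 0.00613) and rpl5 higher (2.92, adjusted p = 0.00542). RPS26, at -1.36, lay below the brightest probe sets of the 20 but not below every dimmer one, such as those of RPS21, rps20 and RPS4 just given. Without root array 1, 4 of the 22 were called lower, where 7.55% of all genes were.

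Embryo against endosperm gave 2 calls. Called higher in embryo was 1 gene, RPS10-1, by 1.75 (limma adjusted p = 0.000825), which read 4445 and 4832 in embryo and 1045 and 1781 in endosperm. Of all genes, 22.4% were called higher. Lower in embryo was rps20 alone, at -1.03 (adjusted p = 0.00185), where 16.9% of all genes were called lower. Under median scaling, quantile normalization and the spike-ins, 0 of the 20 genes were called lower, and 1, 1 and 5 were called higher. Shares of all genes were not counted for this comparison under these scalings. With the trimmed mean, the brightest gene not called was RPS21, at -0.76 (limma adjusted p = 0.0114), past the p but not the fold. The median was -0.39 against 0.02 over all genes. For the 20 genes it was -0.09 with median scaling and with quantile normalization, against 0.29 and 0.004 over all genes. Under each of these, 9 of the 20 were positive. With spike-in scaling this direction turned: 19 of the 20 genes were then positive and their median was 0.56, below the 0.87 of all genes.

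Seedling minus leaf had no called gene in any of the 3 lists in limma, where 2.31% of all genes were called higher and 0.798% lower. At an unadjusted p under 0.05, 1 of 22 cytosolic genes was higher and 2 were lower, against 8.94% and 7.25% of all genes, and ASL1 and AL1 were both lower. A fit of the leaf and seedling arrays alone called 1 of these last 2 lower. The median of the 22 was -0.12 against -0.02 over all genes. Among them the extremes were rpl5, at -0.85 (limma adjusted p = 0.584), and rps14, at 0.71 (adjusted p = 0.391). Without a fold minimum there was again no call in the cytosolic list. The leaf arrays enter 4 of the 5 comparisons, and the embryo and endosperm arrays 2 each, so these comparisons are not independent of each other.

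**Figure D4:**
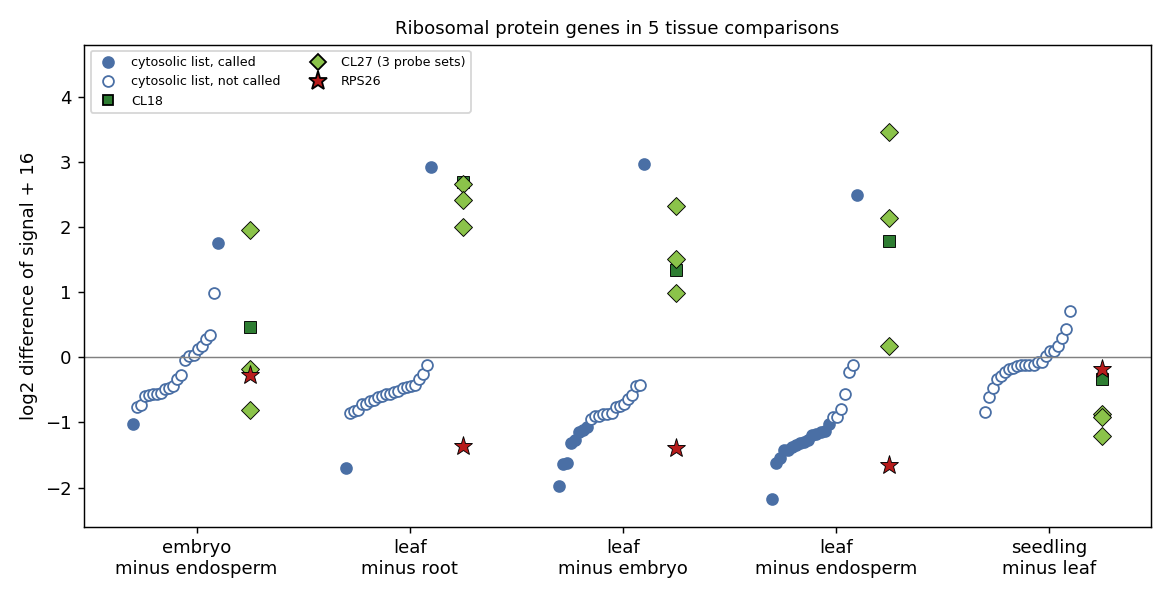
Log2 differences (signal plus 16) of the 22 other cytosolic ribosomal protein genes, 1 circle a gene and filled where called, beside CL18, the 3 CL27 probe sets and RPS26, in 5 comparisons. In leaf minus endosperm 15 circles are filled below 0, RPS26 lies at -1.66 and CL18 at 1.79; the filled circle above 2 in each of the leaf minus root, embryo and endosperm columns is rpl5.

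The genes whose pattern was nearest to each member were found by the Pearson correlation of log2 values over the 10 arrays, among 2336 genes with a readable symbol. For CL18 they were CpSecY (0.961), CIPK7 (0.959), cdsp32 (0.952), OsTATC (0.939) and OsCASPL2C1 (0.937). For the first CL27 probe set they were LTD (0.982), PRXIIE-2 (0.982), ASL1 (0.969), CHS (0.967) and OsCASPL2C2 (0.966). The third was nearest to EGY1 (0.972), PPO (0.965), TBP1 (0.943), IDEF1 (0.923) and CPX (0.865), and the second to RIBA3 (0.959), FBPase (0.958), IAA8 (0.956), LTP2-B (0.950) and EXP6 (0.939). No gene was among the nearest 5 of more than 1 CL27 probe set. For RPS26 they were OsPBC1 (0.972), FBA1 (0.969), PURA1 (0.967), P1/P2-like (0.962) and RPS15 (0.959), the last a gene of the cytosolic list. The 10 arrays came from 5 tissues, so they are not 10 independent points.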

How the data were processed

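The deposited values are signal intensities, 1 for each of 57381 probe sets on each of 10 arrays, made by the authors with MAS5 (version not stated), per the submitters' processing notes. Detection calls and scanner files were not used here. Arrays were set to the same mean, 500 after trimming from 2% to 98%, which the deposited intensities already had, and analysed as log2 of the signal plus 16. Only probe sets reaching 100 on 2 or more arrays, 30014 in all, entered the test. This was a single limma fit (version 3.58.1, under R 4.3.3) of tissue means, moderated by eBayes with a trend on intensity, and it was tested on simulated data. P-values were adjusted by Benjamini-Hochberg over all probe sets. A gene was read from its brightest probe set, and probe sets with several genes were not named.

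The members, gene lists and tissue markers were chosen with earlier results of these data known. Named from each list and comparison were up to 3 genes called in each direction, by largest difference, and the brightest gene not called, besides every chloroplast ribosomal gene and the 5 genes most correlated with each member. Arrays with the same replicate number showed little shared deviation (correlations of deviations from tissue means from -0.108 to 0.0962). This does not show whether they were paired in origin. Alternatives were other scalings, pseudocounts, filters and thresholds, a block for the replicate number, and each array left out in turn.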

Additional observations from a re-analysis of the deposited data

How the results depend on the processing

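Of 360 list counts recomputed under alternatives, 329 stayed within 1.5 times the value reported. Of 250 member differences, 204 moved by less than the spread between arrays. These list counts add higher and lower calls, and a count of 0 that stayed 0 was scored as unmoved. Many could hardly move, since leaving out an array outside a comparison does not change its differences. The replicate block could not move a member difference. These tallies are therefore no measure of how firm the results are. With median scaling, RPS26 embryo minus endosperm turned to 0.026, and its other differences were -1.04 (leaf minus root), -1.13 (leaf minus embryo) and -1.10 (leaf minus endosperm). CL18 leaf minus endosperm was then 2.34, the 3 CL27 probe sets (the first, the second and the third) gave 4.00001, 2.68 and 0.72 there, and the third gave -0.52 for embryo minus endosperm and 2.73 for leaf minus root. With quantile normalization, CL18 was 1.83 (leaf minus embryo) and 2.26 (leaf minus endosperm), RPS26 -1.06 and -1.08 in the same order, and the first and second CL27 probe sets 3.02 and 1.60 for leaf minus endosperm. With the spike-ins, embryo minus endosperm was 1.40 for CL18, 2.83, 0.64 and 0.13 for CL27 and 0.68 for RPS26. The CL27 values of 0.64 and 0.13 and the RPS26 value had the sign turned. Leaf minus endosperm was then 2.86 for CL18, 4.46, 3.10 and 1.23 for CL27 and -0.59 for RPS26. The cause of these shifts was not tested.

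The cytosolic list had 16 calls in leaf minus endosperm, against 3 with median scaling and 2 each with quantile normalization and the spike-ins. Its leaf minus embryo count of 9 became 5 with quantile normalization and 20 with no fold minimum. Its embryo minus endosperm count of 2 became 1 with quantile normalization, 6 with the spike-ins and 9 with no fold minimum. Its leaf minus root count of 2 became 7 with no fold minimum, 6 by any probe set and 0 without rpl5 and rps14. Leaving out AL1 brought the chloroplast ribosomal count from 2 to 1 in the first 4 comparisons, an adjusted p under 0.01 gave 1 in embryo minus endosperm, and a fit of the compared tissues alone gave 1 in seedling minus leaf. The plastid gene expression count of 2 in leaf minus embryo became 1 with a pseudocount of 1, quantile normalization or an adjusted p under 0.01, and its embryo minus endosperm count of 0 became 2 with the spike-ins. Shares of all genes were counted only for the alternatives where they are given above. The other counts here show only how far a count moved.

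Leaving out each array in turn, where the lone array left is assumed to vary like the others, gave these ranges of counts. Embryo minus endosperm spanned 0 to 2 chloroplast ribosomal, 1 to 2 cytosolic and 0 to 1 plastid gene expression genes, leaf minus root 1 to 5 cytosolic genes, and leaf minus embryo 1 to 2 plastid gene expression genes. For leaf minus root, CL18 ranged from 1.84 to 3.53, the first CL27 probe set from 2.11 to 3.22 and the third from 2.10 to 2.74. For embryo minus endosperm, the first CL27 probe set ranged from 1.54 to 2.36, the second from -0.99 to 0.62 and RPS26 from -0.57 to 0.030. For leaf minus endosperm these were 3.05 to 3.87, 1.34 to 2.95 and -1.96 to -1.36, and RPS26 seedling minus leaf ranged from -0.47 to 0.11. Without endosperm array 2, RPS26 embryo minus endosperm turned to 0.030. A block for the replicate number changed no list count, with 16 cytosolic calls in leaf minus endosperm. Which genes were called was not compared. Every tissue holds both replicate numbers equally, so the block could not change a difference, and RPS26 at -1.66 was fixed by the design.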

Other observations

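Control probe sets for cytosolic ribosomal RNA, outside the lists above, differed between the endosperm arrays. One for 18S read 3232 on endosperm array 1 and 20246 on array 2, and one for 28S read 5556 and 29361. Over the other 8 arrays these ranged from 6784 to 12727 and from 3706 to 6967. RPS26 was also higher on endosperm array 2, at 16322 against 10780, and the part of one in the other was not tested.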
